A study of Mus musculus with 5 samples.

Results

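The regions described here are close pairs of RAP1 peaks: 688 sites on chromosomes 1 to 19 at which exactly 2 listed peaks lie with their midpoints less than 1000 bp apart. Peaks were sorted by midpoint, neighbours closer than that distance were joined, and joined sets of exactly 2 peaks were kept. Pairs inside a larger group were left out, a group being 5 or more peaks with gaps of at most 10 kb from one end to the next start. The 688 pairs hold 1376 of the 30398 listed peaks, or 4.60% of the 29940 on the autosomes. Of the remaining autosomal peaks, 28149 had no neighbour within 1 kb and are called single peaks, 132 form the 66 pairs inside larger groups, and 283 belong to joined sets of 3 or more. The X chromosome holds 4 further pairs by the same rule, which are not counted among the 688. Members were thus chosen by measured positions alone: the spacing, the number of peaks in a set and the size of the group are a description, and no read count entered the choice directly.

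RAP1 was immunoprecipitated from mouse embryonic fibroblasts, the connective-tissue cells of the embryo, of mixed strain background. All lines, controls included, were immortalised with the large T antigen of SV40, which inactivates tumour suppressors such as p53, and were grown with puromycin. The study sequenced 5 libraries: 2 from independent wild-type lines (WT), 2 from independent lines with Rap1 deleted (RAP1_ko) as the negative control, and 1 input without antibody. The deposited list gives a pooled positive read set, read here as WT, and a pooled negative read set, read here as RAP1_ko. Neither set is tied to libraries in the file headers, and whether the input entered the negative set is not given in the sources used. No value therefore has a spread between replicates, library depths are unknown, and every interval covers counting error only.

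RAP1 is a subunit of shelterin, the complex that covers the TTAGGG repeats of telomeres. Mammalian RAP1 is held at telomeres by its partner TRF2 rather than by gripping the repeat itself, and it has also been found at sites inside chromosomes. In chromatin immunoprecipitation, sheared fragments are read from their ends, so that forward-strand reads pile up on the left of a bound site and reverse-strand reads on its right. The series mapped RAP1 across the genome. The question for the close pairs is whether their 2 peaks share their strength and their control reads, and how these vary with the spacing.

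The 2 peaks of a pair stood at any distance the rule allows above about 200 bp, with no preferred spacing visible. The median midpoint distance was 583.5 bp, with a 95% interval of 550.5 to 606.5 bp. The middle of the distribution ran from 371.5 bp at the 25th percentile to 794.25 bp at the 75th. No pair lay under 100 bp, 3 lay from 100 to under 150 bp, 17 from 150 to under 200 bp and 90 from 200 to under 300 bp. Each further 100 bp held 72 to 92 pairs. The uncovered gap between the 2 peaks had a median of 496.5 bp and was never shorter than 32 bp, so no pair overlapped. A label of twin peaks can thus cover 2 regions that nearly touch and 2 regions many peak lengths apart. In 417 pairs (60.6%, exact Clopper-Pearson 95% interval 56.8 to 64.3) no further peak joined within 10 kb, 190 pairs had 1 more peak in that reach and 81 had 2 more. The next peak outside the pair lay at a median of 14310 bp.

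**Figure D1:**
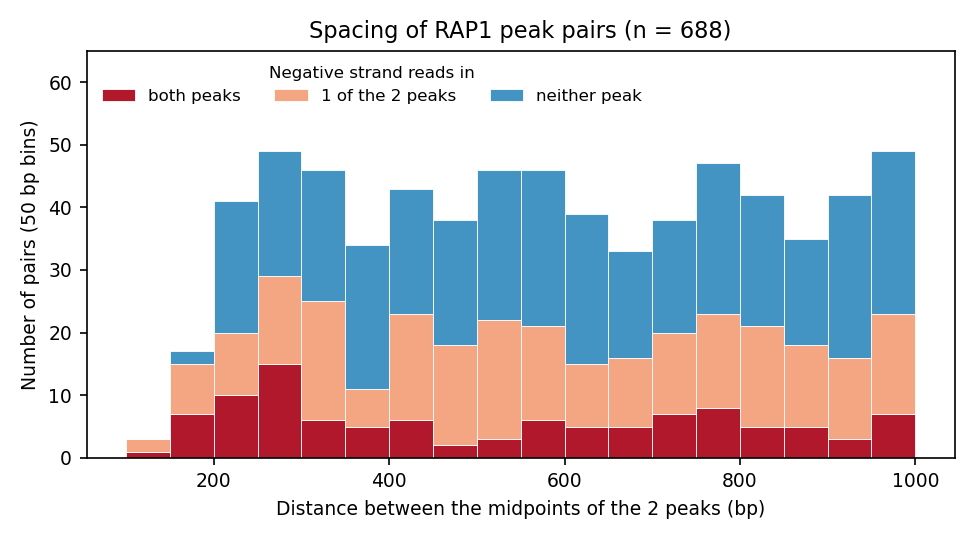
Number of pairs in 50 bp bins of the distance between midpoints, stacked by whether both peaks, 1 of the 2 or neither has negative strand reads. Bins are sparse under 200 bp, even from 200 bp to the limit of 1000 bp, and richest in pairs with control reads in both peaks from 200 to 300 bp.

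The closest pair lies on chromosome 5 (build mm9), from 73773994 to 73774024 and from 73774077 to 73774232, with midpoints 145.5 bp apart. Its left peak holds 35 positive reads and its right peak 23. Next are a chromosome 11 pair at 146 bp (109956331 to 109956361 with 109956471 to 109956513, 27 and 30 positive reads) and a chromosome 2 pair at 149.5 bp (122204348 to 122204377 with 122204498 to 122204526, 21 and 29 positive reads). Control reads stood in at least 1 peak of all 3, with 12 and 0 negative strand reads, 4 and 0, and 15 and 11.

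Just inside the limit, a chromosome 17 pair at 999.5 bp (71660304 to 71660338 with 71661289 to 71661352) holds 22 and 29 positive reads, and 3 and 0 negative strand reads. A chromosome 9 pair at 997 bp (44306538 to 44306592 with 44307532 to 44307592) holds 39 and 20 positive reads, with 11 and 0 negative. A chromosome 17 pair at 996.5 bp (87606816 to 87607159 with 87607967 to 87608001) holds 45 and 32, with 10 and 8 negative. Just outside it, neighbours 1002 bp apart on chromosome 14 (31457650 to 31457714 with 31458655 to 31458713) hold 27 and 30 positive reads and no negative strand read. Those 1002.5 bp apart on chromosome 13 hold 26 and 30 and no negative strand read, and those 1003 bp apart on chromosome 12 hold 27 and 28 with 0 and 8 negative. The 3 pairs inside the limit ranged from 20 to 45 positive reads a peak and the 3 outside it from 26 to 30.

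Peaks of pairs were slightly richer in positive reads than single peaks and had nearly the same median length. Their median was 29 positive reads over the peak, with a 25th to 75th percentile of 25 to 37 and a full range of 13 to 109. Single peaks had a median of 28, with 24 to 34 and 12 to 329. At least 50 positive reads stood in 97 of 1376 pair peaks (7.05%, 5.75 to 8.53) and in 1087 of 28149 single peaks (3.86%, 3.64 to 4.09). The median was higher in pair peaks on 15 of 19 autosomes and equal on 3. Median lengths were 57 and 56 bp, and peaks of 120 bp or more made up 12.5% of pair peaks and 10.4% of single peaks. No test was made between these classes, because the reads are pooled and peaks of 1 pair share their surroundings.

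Strength was shared only weakly within a pair. Across the 688 pairs Spearman's rho between the positive reads of the left and the right peak was 0.0761 and Pearson's r was 0.155, a description over sites that share 1 pooled read set and its depth. For other neighbours outside groups of 5 or more peaks, rho was 0.0381 at 1 to under 10 kb (4696 pairs), 0.0169 at 10 to under 100 kb (16747 pairs) and 0.0197 at 100 kb or more (6873 pairs). All 4 values are near 0. Within the pairs, rho was 0.0573 under 300 bp (110 pairs), 0.169 at 300 to under 500 bp (161), 0.121 at 500 to under 700 bp (164) and 0.0220 at 700 to under 1000 bp (253), which is no steady order with spacing. Peak length had a rho of 0.0276 between the 2 peaks of a pair.

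The larger peak of a pair held a median of 1.30 times the positive reads of the smaller, with a 90th percentile of 1.91 and a highest value of 4.81. The same median was 1.26 over all neighbouring autosomal peaks. In 31 pairs the counts were equal, and in 58 (8.43%, 6.46 to 10.8) the larger was at least 2 times the smaller. The lowest positive count on either strand was 10 over the whole list, a minimum that narrows the range that 2 neighbours can span. Neither side was favoured: the left peak was the better ranked in 342 of 688 pairs (49.7%, 45.9 to 53.5).

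By the test used here, the 2 positive counts of a pair differed in 42 of 688 pairs (6.10%, 4.43 to 8.16). The test was a two-sided exact binomial test against equal counts, with Benjamini-Hochberg adjustment over all 29921 neighbouring autosomal peaks and a threshold of 0.05. Over all those neighbours percent_called was 4.51, a value inside the pairs' interval, so the adjusted share is not a result about the pairs. The called pairs differed by 1.90 to 4.81 times, with a median of 2.40 times. At the median of 60 positive reads per pair a split of 17 to 43, a ratio of 2.53, was needed for a call, so smaller differences were not detectable at this depth. Of the 42, 25 had the stronger peak on the left and 31 had more reads in the longer peak. Over all 657 pairs with unequal counts the longer peak had more reads in 417 (63.5%, 59.7 to 67.2). Without adjustment 131 pairs were called, or 19.04%, with a percent_called of 14.8 over all neighbours. Outside groups of 5 or more peaks, this share was 16.6% for neighbours 1 to under 10 kb apart. It was 14.9% at 10 to under 100 kb and 11.6% at 100 kb or more. Whether the pairs differ from these neighbours was not tested. With the expected share of each peak set by its length in place of equal counts, 261 of 688 pairs were called (percent_called 35.2 over all neighbours).

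**Figure D2:**
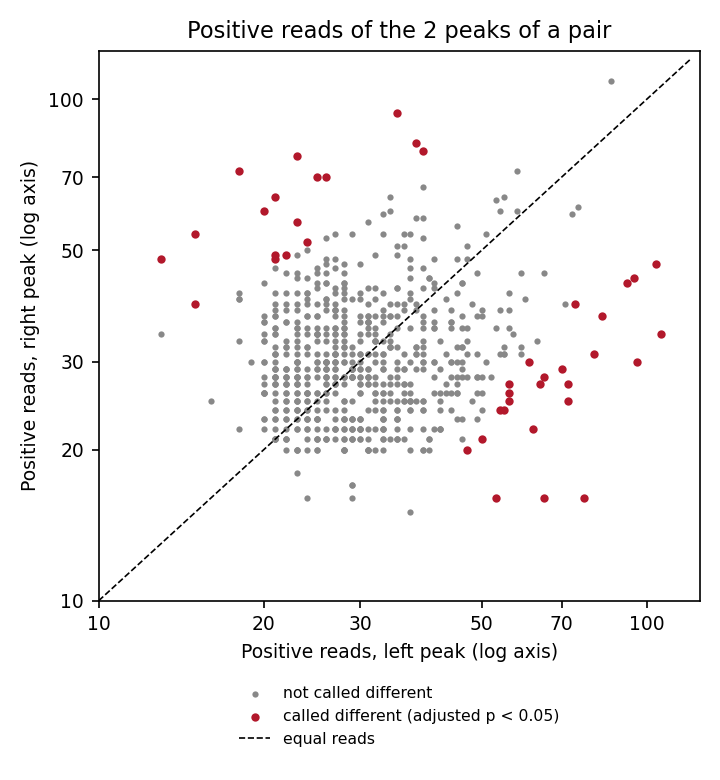
Positive reads of the left peak (horizontal, log axis) against the right peak (vertical, log axis) for the 688 pairs, with the 42 called pairs in red and equality as a dashed line. Points form a round cloud between about 20 and 60 reads rather than following the line.

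In the 5 pairs with the smallest p the stronger peak held 65 to 106 positive reads and the weaker 16 to 34. On chromosome 10 the left peak from 39978490 to 39978519 holds 77 positive reads and the right peak from 39979090 to 39979118 holds 16 (adjusted exact binomial p = 8.47e-08). These 2 peaks, 599.5 bp apart, are ranked 30 and 30054 in the authors' deposited table. They also hold 12 and 14 negative strand reads. Their ratio of summed positive to scaled negative strand reads is 1.03 (0.659 to 1.66). Also on chromosome 10, the peak from 129973377 to 129973406 holds 106 reads and its partner from 129973725 to 129973758 holds 34 (adjusted exact binomial p = 5.28e-07). The chromosome 5 pair from 107596643 to 107596671 and from 107597514 to 107597576 holds 96 and 30 reads (adjusted exact binomial p = 1.6e-06). On chromosome 15 the order is turned, with 18 reads from 103172902 to 103173010 and 72 from 103173432 to 103173461 (adjusted exact binomial p = 3.55e-06). The chromosome 2 pair from 181747252 to 181747555 and from 181747938 to 181747966 holds 65 and 16 (adjusted exact binomial p = 1.4e-05). In the first 3 of these pairs the stronger peak is only 29 or 30 bp long, against 29 to 63 bp for its partner. The contrasts were narrower in the strand-window counts, taken in windows that can reach beyond the peak. In the order given, these were 68 and 21, 106 and 37, 90 and 30, 29 and 66, and 61 and 28 positive reads. The second and the last of these pairs have negative strand reads in 1 peak only, and those on chromosomes 5 and 15 have none.

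Ranks mixed in the same way. By the ranks of the authors' deposited table, 207 pairs (30.1%) had both peaks in the better-ranked 50% of it, 334 (48.5%) had 1 and 147 (21.4%) had none. By the authors' deposited table, the false discovery rate was at or under 0.01 in both peaks of 240 pairs, in 1 peak of 332 and in neither peak of 116. That rate held for 59.0% of pair peaks and 55.6% of single peaks, and 54.4% and 49.6% stood in the better-ranked 50%. Very short peaks of 29 to 31 bp, about the length of a sequencing read, made up both members of 29 pairs and 1 member of 206. Peaks of 120 bp or more made up both members of 13 pairs and 1 of 146. The very short peaks were 19.2% of pair peaks and 17.6% of single peaks, and those of 120 bp or more 12.5% and 10.4%. Whether these splits within pairs differ from those of unrelated peaks was not tested.

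Among the 10 best-ranked pairs, the leading peak held 1.27 to 4.81 times the positive reads of its partner. Ranks follow the same reads, so this is a description of them. By the ranks of the authors' deposited table, the best-ranked pair holds the last listed peak of chromosome 11, from 121843526 to 121843788, with 109 positive reads (rank 11), and a left peak from 121843251 to 121843358 with 86 (rank 161). Its counts did not pass the test of a difference (adjusted exact binomial p = 0.52), and its sum of 195 positive reads is the highest of any pair. On chromosome 11 again, the peak from 53954003 to 53954066 (rank 19) holds 92 positive reads and its neighbour from 53954174 to 53954202, 153.5 bp away, holds 43. The chromosome 10 peak from 79175384 to 79175490 (rank 31) holds 104 and its partner from 79176016 to 79176111 holds 47. Leading counts and partner counts were 71 and 39 on chromosome 1 (173211894 to 173211954 with 173212854 to 173212917), 59 and 31 on chromosome 8 (122892643 to 122892711 with 122892824 to 122892878), and 72 and 27 on chromosome 11 (100254971 to 100255014 with 100255674 to 100255722). They were 51 and 30 on chromosome 17 (47995590 to 47995678 with 47996574 to 47996626) and 50 and 37 on chromosome 2 (165233012 to 165233091 with 165233568 to 165233596). The other 2 of the 10 are the chromosome 10 pairs with 77 and 16 and with 106 and 34 reads. The chromosome 1 and chromosome 17 pairs have no negative strand read. Among the others, the ratio of summed positive to scaled negative strand reads ran from 1.03 (0.659 to 1.66) to 46.7. The lowest belongs to the pair with 77 and 16 reads, the highest to that with 104 and 47. Next lowest were the chromosome 11 pairs with 72 and 27 (1.77, 1.03 to 3.22) and 92 and 43 reads (2.26, 1.38 to 3.93). Outside these 10, a further chromosome 11 pair from 58115434 to 58115504 and from 58116045 to 58116073 holds 95 and 44 positive reads, the fourth highest sum at 139. A chromosome 17 pair from 45703793 to 45703821 and from 45704354 to 45704500 follows with 75 and 61. Each of these 2 pairs has control reads in 1 peak only, with 8 and 0 negative strand reads on chromosome 11 and 0 and 11 on chromosome 17.

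Control reads were more frequent at pairs than at single peaks. The strand-window columns count negative reads on each strand in windows that can reach beyond the peak. They hold at least 1 negative read for 445 of 1376 pair peaks (32.3%, 29.9 to 34.9) and for 4978 of 28149 single peaks (17.7%, 17.2 to 18.1). Summed over the pair peaks, 44198 positive stood against 3948 negative strand reads, a ratio of 3.37 (95% interval 3.26 to 3.48) after scaling negative reads by 3.32. The same ratio was 6.16 (6.09 to 6.22) over single peaks. Peaks were listed for their excess of positive reads, and such ratios are therefore properties of the list, with no test of binding.

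The difference lay in how many peaks had control reads rather than in how many reads each such peak had. Where any negative strand read stood, its median number was 8 in pair peaks and 7 in single peaks, and the median ratio was 1.32 and 1.35. A ratio of 1 or less stood at 153 pair peaks (11.1%, 9.51 to 12.9) and 1745 single peaks (6.20%, 5.92 to 6.49). In the whole-peak column a negative read stood at 7 pair peaks (0.509%, 0.205 to 1.05) and 51 single peaks (0.181%, 0.135 to 0.238). That column holds 21 negative reads in all for the 1376 peaks, against 3948 in the strand windows. The highest forward negative window lay inside its own peak in 148 of 253 pair peaks with such a window (58.5%). For the reverse strand this held in 120 of 255 (47.1%). Why the whole-peak column holds so few negative reads was not tested. The whole-peak ratio stands only among the processing alternatives.

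The same order held within classes of length, read number and local density. In peaks of 29 to 31 bp, 44.3% of pair peaks (38.2 to 50.5) and 27.0% of single peaks (25.7 to 28.2) had negative strand reads. From 32 bp to under 120 bp the shares were 27.6% and 14.8%, and at 120 bp or more 40.1% and 22.2%. Peaks with under 25 positive reads had shares of 26.5% and 13.4%, and those with 50 or more had 62.9% and 37.3%. Pair peaks lay in richer megabases, with a median of 21 listed peaks against 17 for single peaks. A rule on close positions picks such megabases more often, so this is only a description. In megabases of up to 14 listed peaks 24.8% of pair peaks (20.1 to 30.1) and 12.7% of single peaks (12.1 to 13.3) had control reads, and in megabases of 25 or more 39.9% and 25.4%.

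Crowding beyond the pair went further in the same direction. In the 132 peaks of pairs inside groups of 5 or more, 38.6% (30.3 to 47.5) had negative strand reads and the summed ratio was 2.64. In the 283 peaks of sets of 3 or more, 60.8% (54.8 to 66.5) had them and the ratio was 1.85. No test was made between these classes.

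Control reads were more frequent at a peak whose partner had them. Spearman's rho between the negative strand reads of the 2 peaks was 0.230 over the 688 pairs, where many counts are 0. Over the 106 pairs with such reads in both peaks it was 0.118. Presence of control reads is a measure unlike the rank order of positive reads, so the 2 kinds of sharing were not ranked. Negative strand reads stood in both peaks of 106 pairs (15.4%, 12.8 to 18.3), in 1 of the 2 in 233 (33.9%, 30.3 to 37.5) and in neither in 349 (50.7%, 46.9 to 54.5). Counting each pair once from either side, a peak had them in 47.6% of cases where its partner did and in 25.0% where its partner did not, with no interval given because the peaks of a pair are not independent. For neighbours 1 to under 10 kb apart, these shares were 25.5% and 21.5%. Control reads in both peaks stood in 5.71% (5.06 to 6.41) of those neighbours, in 4.02% (3.73 to 4.33) at 10 to under 100 kb and in 2.05% (1.73 to 2.41) at 100 kb or more.

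**Figure D3:**
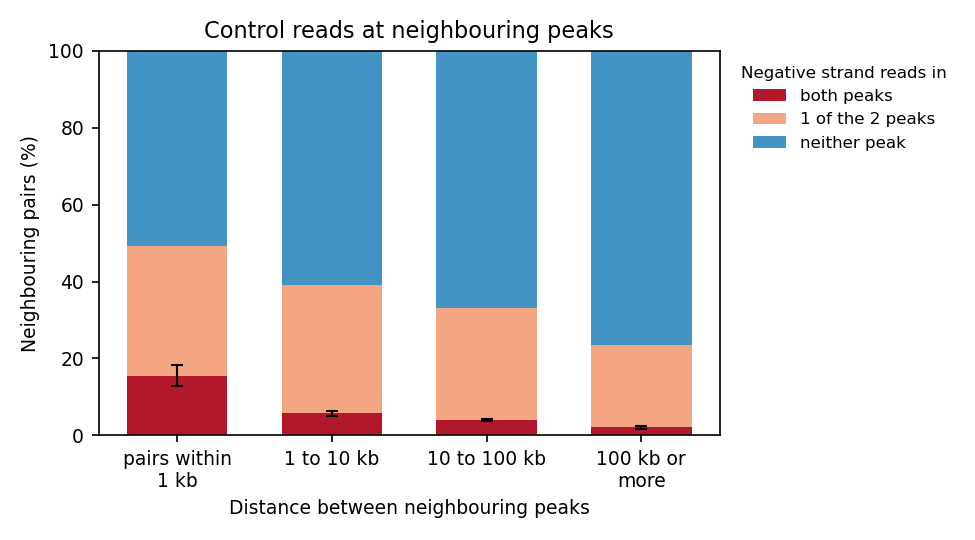
Percent of neighbouring pairs with negative strand reads in both peaks, in 1 of the 2 or in neither, for the 688 pairs within 1 kb and for neighbours farther apart outside groups of 5 or more peaks. Black bars are exact 95% intervals of the share with reads in both, which stood at 15.4% within 1 kb and at 5.71% or less beyond.

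Among the 349 pairs with no negative read in any column, the bound on the summed ratio ran from at least 4.22-fold to at least 13.0-fold higher with the positive set, with a median bound of 5.72-fold. These bounds set the positive strand reads of the pair over a floor of 3 negative reads, or 9.96 positive reads after scaling, and the lowest of them lie near the minimum that every listed peak has. The strongest lies on chromosome 10 from 5056825 to 5056981 and from 5057245 to 5057746. Its peaks, 157 and 502 bp long, hold 58 and 72 positive reads, at least 13.0-fold higher. A chromosome 5 pair already described, with 96 and 30 reads, reaches at least 12.0-fold in its strand windows. On chromosome 16, from 58351952 to 58352181 and from 58352277 to 58352784, 39 and 79 reads stand 464 bp apart, at least 11.2-fold higher. The chromosome 1 pair with 71 and 39 reads is at least 11.3-fold higher, and a chromosome 10 pair from 82614403 to 82614475 and from 82614616 to 82615063, with 47 and 48 reads, at least 9.23-fold. In 3 of these 5 pairs the right peak is over 440 bp long.

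At the other end, 53 pairs (7.70%, 5.82 to 9.96) had a summed ratio of 1 or less. Of the 339 pairs with a negative strand read, the interval of the ratio lay wholly above 2 in 46, wholly under 2 in 67 and across 2 in 226. Pairs with control reads in both peaks had a summed ratio of 1.19 (1.14 to 1.26), those with control reads in 1 of the 2 had 2.35 (2.24 to 2.46).

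The pair with the most negative strand reads lies on chromosome 10 from 126505156 to 126505327 and from 126505486 to 126505767, with 21 and 25 negative against 56 and 64 positive strand reads, a ratio of 0.785 (0.555 to 1.13). On chromosome 17, from 39983959 to 39983988 and from 39984349 to 39984378, 2 peaks of 30 bp hold 7 and 36 negative against 50 and 52 positive strand reads (0.714, 0.495 to 1.05). A chromosome 3 pair from 96066357 to 96066625 and from 96066838 to 96066900 holds 6 and 33 negative strand reads (ratio 0.733). The whole interval lay under 1 on chromosome 6 from 112996000 to 112996030 and from 112996211 to 112996245 (29 and 9 negative, 0.388, 0.249 to 0.610). The same held on chromosome 3 from 79432085 to 79432114 and from 79432704 to 79432733 (23 and 15 negative, 0.372, 0.238 to 0.587). At these last sites the scaled control exceeded the positive set over the summed strand windows.

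Within pairs that had control reads, the proportion of them often differed between the 2 peaks. In two-sided Fisher's exact tests of positive and negative strand reads, adjusted over all 9887 neighbouring autosomal peaks with a negative strand read, 148 of 339 pairs (43.7%, 38.3 to 49.1) were called at 0.05. Over all those neighbours percent_called was 46.6, inside the pairs' interval, so this share too is no result about the pairs. Without adjustment 177 were called, or 52.2% (percent_called 55.9 over all neighbours tested). From the forward windows alone 86 of 215 pairs were called (percent_called 37.8 over all neighbours tested). In 127 of the 148 only 1 of the 2 peaks had negative strand reads.

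The clearest case lies on chromosome 2, where the left peak from 32548997 to 32549032 has 55 positive and 0 negative strand reads and the right peak from 32549896 to 32549930 has 26 and 20 (adjusted Fisher's exact p = 2.02e-06). On chromosome 11 the left peak from 83893624 to 83893659 has 29 and 30 and the right peak from 83894292 to 83894359 has 37 and 0 (adjusted Fisher's exact p = 2.36e-06). The chromosome 17 pair from 35186577 to 35186775 and from 35186891 to 35186988 has 21 and 19 on the left, 47 and 0 on the right, only 263.5 bp apart (adjusted Fisher's exact p = 3.87e-06). The chromosome 4 pair from 87740871 to 87740900 and from 87741769 to 87741797 has 21 and 22 on the left and 39 and 0 on the right (adjusted Fisher's exact p = 4.21e-06). The chromosome 3 pair from 105524603 to 105525060 and from 105525501 to 105525551 has 69 and 0 on the left and 29 and 15 on the right (adjusted Fisher's exact p = 1.42e-05). In each of these 5 pairs 1 peak had no negative strand read while its partner had a ratio under 1, from 0.287 on chromosome 4 to 0.582 on chromosome 3. The best-ranked pair, at the end of chromosome 11, was also called: its left peak has 17 negative strand reads and its right peak 0 (adjusted Fisher's exact p = 0.000204).

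The closest pairs had the most control reads. Of the 110 pairs under 300 bp apart, 33 had negative strand reads in both peaks (interval 21.6% to 39.5%), against 11.8% at 300 to under 500 bp, 11.6% at 500 to under 700 bp and 13.8% at 700 to under 1000 bp. The summed ratio was 2.24 (2.09 to 2.40) under 300 bp and 3.59, 3.83 and 3.71 in the wider classes. Of the 20 pairs under 200 bp, 8 had control reads in both peaks and 2 in neither. In those 20 pairs 17 of 40 peaks were 29 to 31 bp long (42.5%, 27.0 to 59.1), against 19.2% of all pair peaks. The sum of positive reads did not follow the spacing (rho 0.0119 over 688 pairs), and called differences in positive reads stood at 4.55% to 8.54% in the 4 classes.

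The strand of the control reads went with the side of the peak most clearly in pairs under 500 bp, a limit chosen after the values were seen and not tested. Most peaks with control reads had them on 1 strand only: 186 of 219 left peaks and 196 of 226 right peaks. Under 500 bp, such left peaks had forward reads alone in 50 cases and reverse reads alone in 27 (64.9% forward, 53.2 to 75.5). Right peaks had forward reads alone in 31 and reverse reads alone in 57 (35.2% forward, 25.3 to 46.1). At 500 bp or more the numbers were 56 and 53 on the left (51.4%, 41.6 to 61.1) and 53 and 55 on the right (49.1%, 39.3 to 58.9). For neighbours 1 to under 3 kb apart, forward shares were 46.7% on the left and 47.6% on the right, and at 3 to under 10 kb 50.2% and 50.3%.

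Counted in reads, part of the contrast remained in wider pairs. Forward reads made up 62.8% of negative reads at left peaks and 36.9% at right peaks under 500 bp, 45.9% and 48.5% at 500 to under 700 bp, and 58.4% and 45.5% at 700 to under 1000 bp. At 1 to under 3 kb the order was the opposite, with 46.1% on the left and 52.5% on the right. The contrast was widest under 200 bp. There the negative reads were 84 forward and 35 reverse at left peaks, and 1 forward and 85 reverse at right peaks. These reads come from only 14 left and 12 right peaks. Forward reads alone stood at 8 and reverse reads alone at 2 of the left peaks, against 1 and 11 of the right. At 200 to under 300 bp the forward reads were 239 of 381 on the left and 129 of 322 on the right. Of the 22 pairs under 300 bp in which each peak had control reads on 1 strand only, 13 had forward reads on the left and reverse reads on the right, 3 the opposite, 2 forward in both and 4 reverse in both. In the same order the numbers were 3, 1, 5 and 1 of 10 such pairs at 300 to under 500 bp. At 500 bp or more they were 11, 9, 15 and 10 of 45. The positive reads of the same columns showed no such lean, at 50.2% forward in left and 49.97% in right peaks over the 688 pairs, though the right peaks under 200 bp stood at 42.6%. In no pair did the highest negative window of 1 peak lie inside its partner or at the same position in both, though these windows reached up to 270 bp beyond a peak. Whether the strand windows of the closest pairs share reads was not tested.

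**Figure D4:**
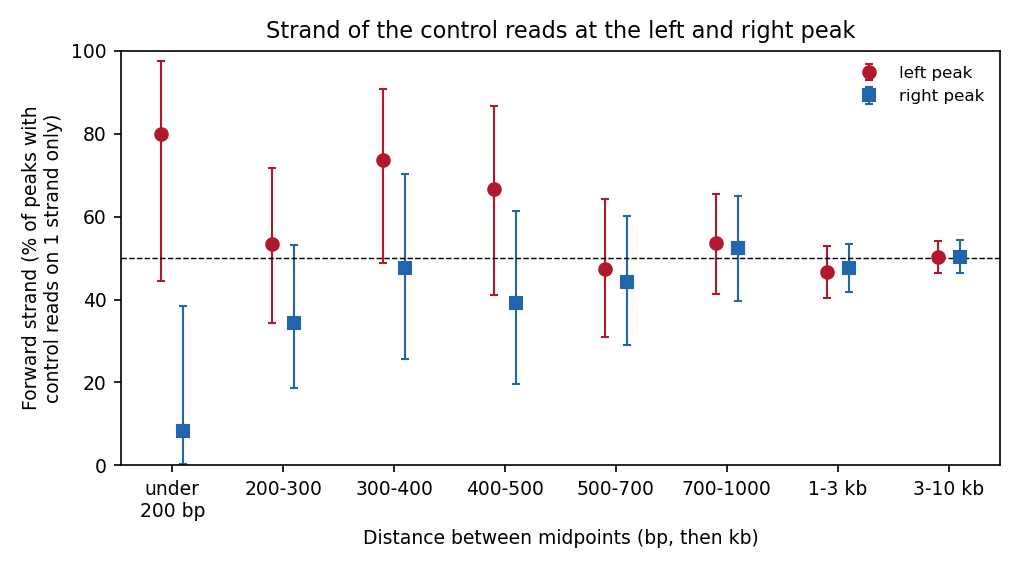
Percent of peaks with forward reads among peaks that have control reads on 1 strand only, for the left and right peak of pairs by midpoint distance and of neighbours up to 10 kb apart, with exact 95% intervals. Left points lie above right points in each class under 500 bp (64.9% and 35.2% over these classes together) and both lie near the dashed 50% line from 500 bp on.

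Pairs occurred on every autosome, from 11 on chromosome 7 to 64 on chromosome 11. Chromosome 17 had the largest share of its peaks in pairs, 7.29% (5.95 to 8.84) or 48 pairs, and chromosome 7 the smallest, 2.13% (1.34 to 3.21). Chromosome 6 stood at 5.95%, chromosome 11 at 5.84% and chromosome 12 at 2.82%, with a median of 4.60% over the 19. The share ran with peak density (rho 0.567 over 19 chromosomes, which share the pooled read set and its depth). Pairs were chosen by close positions, so denser peaks raise this share by the rule itself, and the rho is no result about the pairs. Within 2 Mb of the last listed peak lay 56 pair peaks (4.07%, 3.09 to 5.25), against 664 single peaks (2.36%, 2.18 to 2.54). Within 2 Mb of the first listed peak the shares were 1.89% (1.24 to 2.76) and 1.70% (1.55 to 1.86). The rule used positions, so these shares too are only a description.

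The share of peaks with control reads was higher in pair peaks than in single peaks on 19 of 19 autosomes, and the summed ratio was lower on 19 of 19. Chromosome 17 stood lowest, with negative strand reads at 44.8% of its pair peaks, a ratio of 2.09 (1.90 to 2.31) and 483 of the 3948 negative strand reads. Chromosome 15 followed at 40.5% and 2.59 (2.28 to 2.94). Chromosome 13 had the highest ratio, 6.40 (5.12 to 8.10), next to 6.64 in its single peaks, and chromosome 18 the smallest share with control reads, 17.6%. Without chromosome 17 the ratio over all pairs was 3.55.

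**Figure D5:**
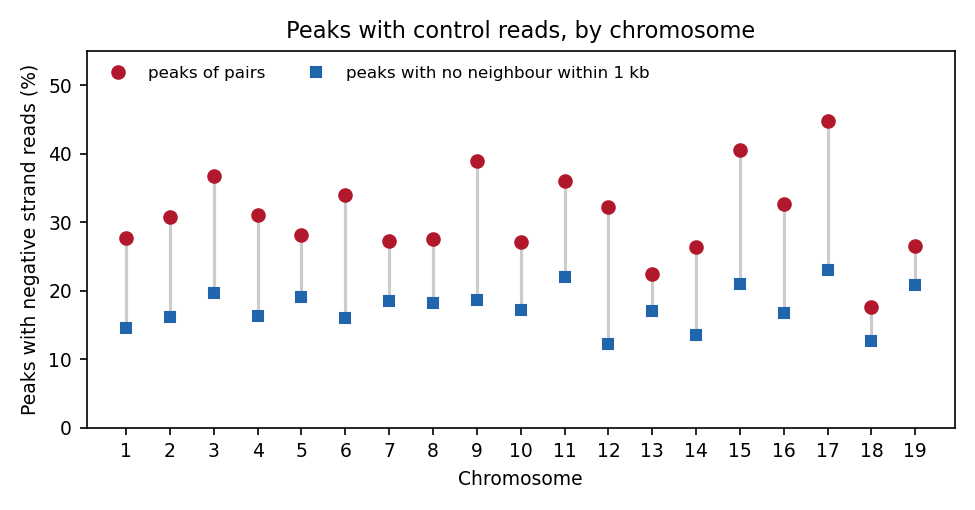
Percent of peaks with negative strand reads on each autosome, for peaks of pairs (circles) and for peaks with no neighbour within 1 kb (squares). The circle lies above the square on 19 of 19 autosomes, from 17.6% on chromosome 18 to 44.8% on chromosome 17.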

How the data were processed

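RAP1 immunoprecipitates of 2 wild-type and 2 Rap1-deleted fibroblast lines and 1 input were measured; the authors deposited 1 pooled peak list. Coordinates are in build mm9, per the submitters' processing notes. Aligner, peak caller and read filters: not given in the sources used here. Per the file headers, read numbers per peak and per strand window are counts, not normalised, the highest window is a coverage signal in reads, and the false discovery rate is a q-value. Folds were deposited as log2 values, and their entries give a scale of 3.32 between the sets (140 of 141 entries within 0.001). The deposited length and distance between strand modes, in bp, were taken as a score per peak. Depth per library is unknown.

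Python 3.11.15, scipy 1.17.1 and pandas 2.3.3 were used. Shares have exact Clopper-Pearson intervals, ratios exact conditional binomial intervals, and medians of spacing order-statistic intervals, all at 95%. They cover counting error only, and copies made in PCR are not independent molecules. Intervals of shares and ratios over pair peaks also ignore that the 2 peaks of a pair go together. Binomial and Fisher's exact tests ran over all neighbouring autosomal peaks and were tested on simulated data. Named pairs were the 10 best ranked, the 5 with the most positive reads (also among pairs without negative reads) or negative strand reads, the 3 closest and 3 widest, the 3 neighbours just outside the limit, and the 5 smallest adjusted p of each test. Members, rules and tests were chosen with earlier results of these data known. A planned comparison of WT with RAP1_ko needs values per library and was not run. Sequence and gene annotation of mm9 were not used here, so no pair was assigned to a gene.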

Additional observations from a re-analysis of the deposited data

How the results depend on the processing

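No paired analysis was possible because the list pools the libraries of each kind. Joining at 500 bp gave 292 pairs with a median spacing of 323.25 bp, 16 called different in positive reads and 20.9% with control reads in both peaks. Their summed ratio was 2.79 and 65 of 160 tested were called different in negative share. Joining at 2 kb gave 1238 pairs, 981.75 bp, 65 calls, 10.2%, a ratio of 3.99 and 248 calls of 553 tested. The joining distance does not change the neighbours tested, over which percent_called was 4.51 for positive reads and 46.6 for negative share. A false discovery rate at or under 0.01 gave 277 pairs, 21 calls, 19.1%, 3.25 and 65 calls of 157 tested. The better-ranked 50% gave 247 pairs, 21 calls, 21.1%, 3.05 and 59 calls of 150 tested. Shares called over all neighbours were not computed for these shorter lists, so their calls are no result about the pairs. Pairs were formed anew after each change of joining distance or peak list, so these sets are not subsets of the 688 pairs. A gap under 1000 bp moved the median spacing to 609 bp. Pairs 500 bp or more apart, an alternative chosen after seeing the data, numbered 417, with a median of 754 bp and a ratio of 3.76. Of 195 tested, 87 were called in negative share (percent_called 46.6 over all neighbours tested). In fewer pairs fewer calls were possible.

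With the expected share of positive reads set by peak length, 261 pairs were called (percent_called 35.2 over all neighbours). Without adjustment 131 were called (percent_called 14.8 over all neighbours). The forward window alone gave 86 calls in negative share (percent_called 37.8 over all neighbours tested). Whole-peak reads gave a ratio of 637, from 21 negative reads. Leaving out each autosome kept the ratio from 3.30 to 3.55, outside its interval only without chromosome 17 (3.55), and the pairs with control reads in both peaks at 14.6% to 15.9%. Pooled reads limit every value to counting error.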
